A study of Zea mays with 48 samples.

Results

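Embryos dissected by hand at 5 days after pollination (DAP) from reciprocal crosses of the maize inbred lines B73 and Mo17 were compared: 3 libraries of the cross with Mo17 as seed parent and B73 as pollen parent (MB) against 3 libraries of the cross with B73 as seed parent and Mo17 as pollen parent (BM). These are the groups whose titles carry 5 DAP embryo and no mark of laser capture microdissection (LCM), the cutting of cells from tissue sections under a microscope. They are 6 of the 48 libraries of the series, which cover 16 groups of 3. The plants were untreated apart from controlled pollination, and each library was made from a pool of a great many embryos drawn from several ears, per the labels. The other groups used beside them were LCM embryos at 5 DAP, hand-dissected embryos at 7 to 13 DAP and endosperm at 5 DAP, each of both crosses. The labels give the ears as the source of a replicate, so the p-values below measure the spread between such pools. All samples are F1 hybrids of the same inbred pair, and no inbred or other control was compared.

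Embryos of reciprocal crosses carry the same nuclear alleles and differ in which parent contributed each of them, in the cytoplasm and in the maternal plant around the seed. Endosperm, the nutritive tissue beside the embryo, receives more copies of the maternal than of the paternal genome. In the grass embryo the shoot apical meristem and the first leaf are laid down early; KNOTTED1-like homeobox (KNOX) genes mark the meristem, and YABBY and WOX genes mark leaf founder cells and leaf margins. The endosperm next to the embryo forms the embryo-surrounding region, and its base forms the basal transfer layer, through which sugars enter the kernel.

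Total counts of the 6 libraries ran from 12037753 to 15983597, and 24521 to 28487 gene models had a read. The counts of 2 libraries of one cross differed by more than counting noise (chi-square per degree of freedom of 2.24 to 9.37), so no library was counted as a repeat of another. Levels are in CPM, the count of a gene scaled to a common library total. A gene was called when edgeR's quasi-likelihood test gave a Benjamini-Hochberg adjusted p under 0.05. Of 22060 genes tested, 6005 were called (27.2%), 2839 higher in MB (12.9%) and 3166 lower in MB (14.4%). With a change of at least 1 on the log2 scale the calls numbered 1955 (8.86%), of which 898 were higher in MB (4.07%) and 1057 lower (4.79%). The largest changes were more often higher in MB: 129 genes rose and 49 fell by at least 4 on the log2 scale, and 72 rose and 17 fell by at least 5. The share of calls that were higher in MB was 47.3% and became 66.5% (3230 higher, 1628 lower) with limma on the authors' FPKM, a scale on which the median of all genes was shifted by 0.12 towards MB. In a single fit over all 48 libraries, which share one estimate of the spread, 1546 genes were called.

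Many genes of the shoot apex and the leaf primordium were higher in MB embryos, 14 of the 26 tested on the meristem list. The KNOX gene kn1 (GRMZM2G017087), the founding marker of the shoot meristem, was at 0.814, 0.831 and 0.621 CPM in the BM libraries and at 78.7, 83.8 and 70.1 CPM in the MB libraries. The crosses did not overlap, and BM held 8 to 12 reads of the gene per library. The log2 fold change of kn1 was 6.58 ± 0.16 (SE; adjusted p = 1.3e-11, edgeR). A second KNOX gene, gnarley1 (GRMZM2G452178), which when misexpressed distorts the leaf base, was at 0.271, 0 and 0.155 CPM in BM and at 16.8, 11.5 and 15.4 CPM in MB, a log2 fold change of 6.43 ± 0.42. Of the 33 meristem and KNOX genes listed, 26 passed the filter on low counts; these 14 were higher in MB (53.8% against 12.9% of all genes) and 3 lower (11.5% against 14.4%). Their median log2 fold change was 1.31, against 0.01 over all genes tested. Membership rested on gene symbols, and a gene read in one cross alone passes the filter through that cross.

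Other members of the list that were higher in MB mark leaf initiation. The narrow sheath gene ns1, a WOX gene of leaf margin founder cells, had no read in any BM library and was at 5.35, 1.57 and 4.07 CPM in MB. With 3 counts over the BM group as the limit that a count of 0 allows, ns1 was at least 49.0-fold higher in MB. The NAC gene nam1, named for its petunia relative that bounds the meristem, also had no read in BM and was at 5.49, 1.05 and 3.63 CPM in MB, at least 45.3-fold higher on the same limit. The WOX gene wox3A was at 0.136, 0 and 0.0777 CPM in BM and at 3.61, 4.35 and 2.44 CPM in MB. None of these genes was above 6 CPM in MB, so their fold changes rest on few reads. The MYB gene rs2, which represses KNOX genes in leaves, rose from 2.1, 1.16 and 3.65 CPM in BM to 18.1, 12.8 and 15.9 CPM in MB. Genes that restrict meristem size were also higher in MB, the receptor gene fea3 by 1.82 ± 0.22 and the receptor kinase gene listed as KIN5 (thick tassel dwarf1) by 1.85 ± 0.20 on the log2 scale. The early embryo gene wox2A, a marker of the apical domain, was 9.43, 6.65 and 10.3 CPM in BM and 21.0, 11.9 and 16 CPM in MB, a log2 fold change of 0.81 ± 0.22 that was not called without MB replicate 1 or on the FPKM scale. The stem cell gene wus1 was at 1.14 ± 0.639 CPM in BM and 0.904 ± 0.0967 CPM in MB (SD, n = 3).

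The 3 meristem list members that were lower in MB were ra3, wox9B and wox9C. The trehalose phosphatase gene ra3, known from inflorescence branching, was at 9.71, 6.15 and 7.92 CPM in BM and at 0.722, 1.42 and 0.501 CPM in MB, a log2 fold change of -3.26 ± 0.38. It was lower in MB in every sample kind tested, with log2 fold changes of -5.52 in LCM embryos and -1.42 at 7 DAP and with 10.6 against 1.43 CPM in endosperm (adjusted p = 0.00058, edgeR). The embryo-patterning gene wox9C fell by 0.66 ± 0.13, and wox9B by 0.42 ± 0.13 on the log2 scale; the wox9B call was lost in 5 of the 6 fits that left out a library.

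Of the YABBY genes, which mark the developing leaf, yab14, yab10, yabby15 and yab9 were higher in MB. The gene yab14 (GRMZM2G005353) was at 0.882, 1.91 and 2.02 CPM in BM and at 88.7, 79.3 and 82.2 CPM in MB. All 3 MB libraries stood far above all 3 BM libraries, with a log2 fold change of 5.64 ± 0.18 (adjusted p = 8e-11, edgeR). The log2 fold change was 3.23 ± 0.19 for yab10, 2.83 ± 0.14 for yabby15 and 2.18 ± 0.22 for yab9. Of the others tested, YAB3 was at 0.62, YAB5 at 0.28, YAB11 at 0.71 and DL1 at -0.12 on that scale, and none was called. Reads of close copies within this family may have been shared. The homeobox and YABBY list shares gnarley1, wox3A and wox9B, among others, with the meristem list. Of its 33 tested members 9 were higher in MB (27.3% against 12.9% of all genes) and 8 lower (24.2% against 14.4%). Their median was 0.04. In the fit over all 48 libraries 8 were higher and 1 lower.

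A pair of partners that promote leaf growth was higher in MB. The transcription factor GRF1 (GRMZM2G178261), which promotes cell division in young leaves, was at 17.0, 16.8 and 17.1 CPM in BM and at 107, 119 and 117 CPM in MB, a log2 fold change of 2.68 ± 0.082. Its coactivator AN3, also called GIF1, was at 14.5, 10.1 and 15.1 CPM in BM and at 160, 134 and 168 CPM in MB, a log2 fold change of 3.46 ± 0.13. The libraries of each cross lay close together and the crosses were well apart for both genes.

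**Figure D1:**
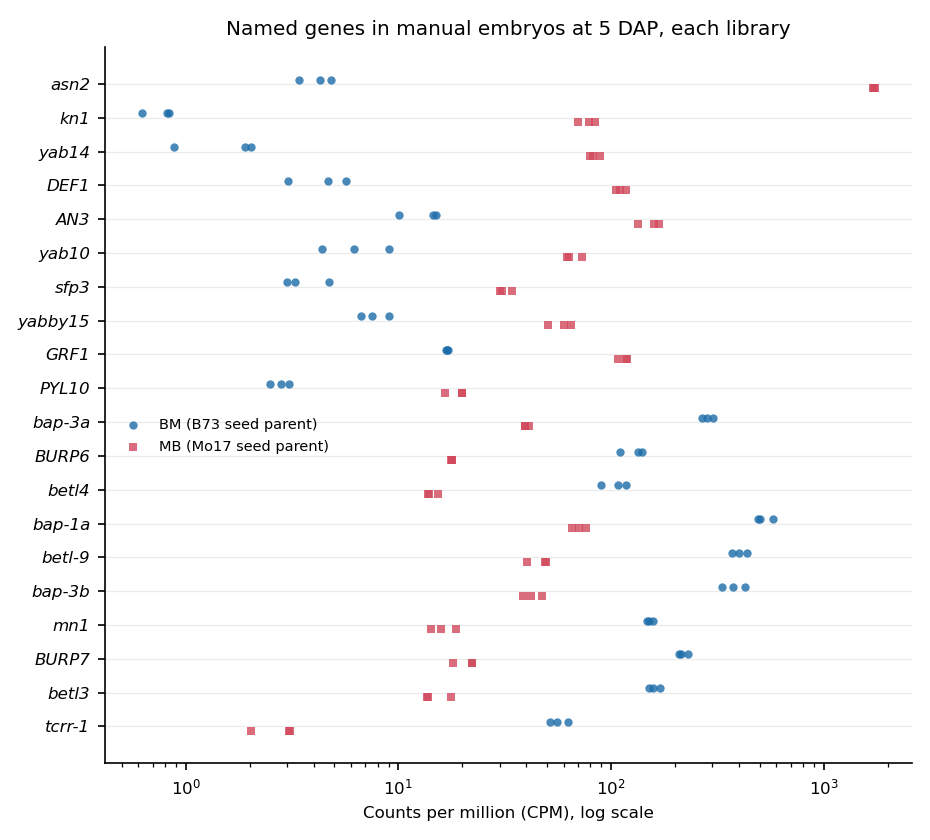
CPM on a log axis of the 20 genes with a symbol that the naming rule chose, in each of the 6 libraries (blue circles BM, red squares MB, 3 points each). The 10 genes at the top were higher in MB, asn2 from 3.41 to 4.82 CPM in BM to 1713 to 1750.5 CPM in MB; the 10 at the bottom were lower in MB, tcrr-1 from 51.6 to 62.5 CPM in BM to 2.02 to 3.11 CPM in MB.

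The gene asn2 (GRMZM2G093175) encodes an asparagine synthetase, which makes the amide used to carry and store nitrogen. Among genes with a symbol, a mean of at least 10 CPM and no overlap of the crosses, asn2 had the largest change. It was at 4.28, 3.41 and 4.82 CPM in BM and at 1725, 1713 and 1750.5 CPM in MB, a log2 fold change of 8.61 ± 0.0935 (adjusted p = 9.6e-15, edgeR). The SD of the MB libraries was 19.1 CPM (n = 3). Further genes of the rule were higher in MB: DEF1, whose gene model matched several RefSeq entries so that its symbol is uncertain, by 4.56 ± 0.15, sfp3 by 3.04 ± 0.18 and the abscisic acid receptor gene PYL10 by 2.67 ± 0.19. Of gene models without a symbol under the same limits, GRMZM2G029243 had the largest change. It went from 0.339, 0 and 0.388 CPM in BM to 150, 112 and 139 CPM in MB. The gene model GRMZM2G127342 rose by 7.63 ± 0.19 on the log2 scale. The largest falls of this kind were in GRMZM5G871471, at 19.7, 24.8 and 21.0 CPM in BM and 0.433, 0 and 0.125 CPM in MB, and in GRMZM5G851266, which fell by 5.53 ± 0.20 on the log2 scale.

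Near-complete absence in one cross was more frequent in BM. There were 13 gene models with at least 10 CPM in every MB library and under 1 CPM in every BM library, and 2 with the reverse. Of the 13, kn1, gnarley1, the basic helix-loop-helix (bHLH) genes bHLH7 and bHLH173 and the MYB-related gene MYBR47 had a symbol. By 7 DAP 10 of the 13 were at 10 CPM or more in every BM library. In endosperm 12 of the 13 were under 1 CPM in all 6 libraries. Over all genes tested the MB and BM values did not overlap for 44.6%, 27.7% with MB higher and 16.9% with MB lower, on a CPM scale whose median log2 ratio was 0.09.

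The 14 meristem genes that were higher in MB at 5 DAP were not called at 7 DAP. At that age kn1 was at 73.8 ± 2.15 CPM in BM and 73.3 ± 11.9 CPM in MB (SD, n = 3), and yab14 was at 105 ± 10.7 and 103 ± 10.9 CPM. The gene yabby15, higher in MB at 5 DAP, was lower in MB at 7 DAP (-0.75, adjusted p = 0.0044, edgeR). In the 7 DAP comparison 1794 of 21560 genes were called (8.32%; 3.73% higher and 4.59% lower in MB; 419 to 3492 genes when 1 library was left out), and the share of calls that were higher in MB, 44.8%, became 58.8% on the FPKM scale. Without MB replicate 3 of 7 DAP, 2 of the 14 were called and lower in MB. Over the whole meristem list 5 of 26 tested members were lower in MB at 7 DAP (19.2% against 4.59% of all genes) and none higher. That count was 2 without BM replicate 1 or MB replicate 2 of 7 DAP, 3 without BM replicate 2, 8 without MB replicate 3 or without the filter on low counts, 1 on the FPKM scale and 0 in the fit over all 48 libraries; DESeq2 and the replicate block each called 1 higher and 7 lower. The change of the cross difference from 5 to 7 DAP was tested by an interaction term, which called 2681 of 22972 genes (11.7%; 4.99% upwards and 6.68% downwards). The share of these upwards, 42.7%, became 28.7% on the FPKM scale. The 14 meristem genes were chosen by their calls at 5 DAP, and the term reuses those libraries. A negative value is therefore favoured by the choice. All 14 had the interaction with age, with a median of -3.07 on the log2 scale. It was -6.62 ± 0.20 for kn1 (adjusted p = 1.4e-12, edgeR) and -5.71 ± 0.22 for yab14. The count of 14 was 12 to 14 without any 1 library and 6 in the fit over all 48 libraries. Of all 6005 genes called at 5 DAP, 1991 had the interaction with age (33.2%).

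**Figure D2:**
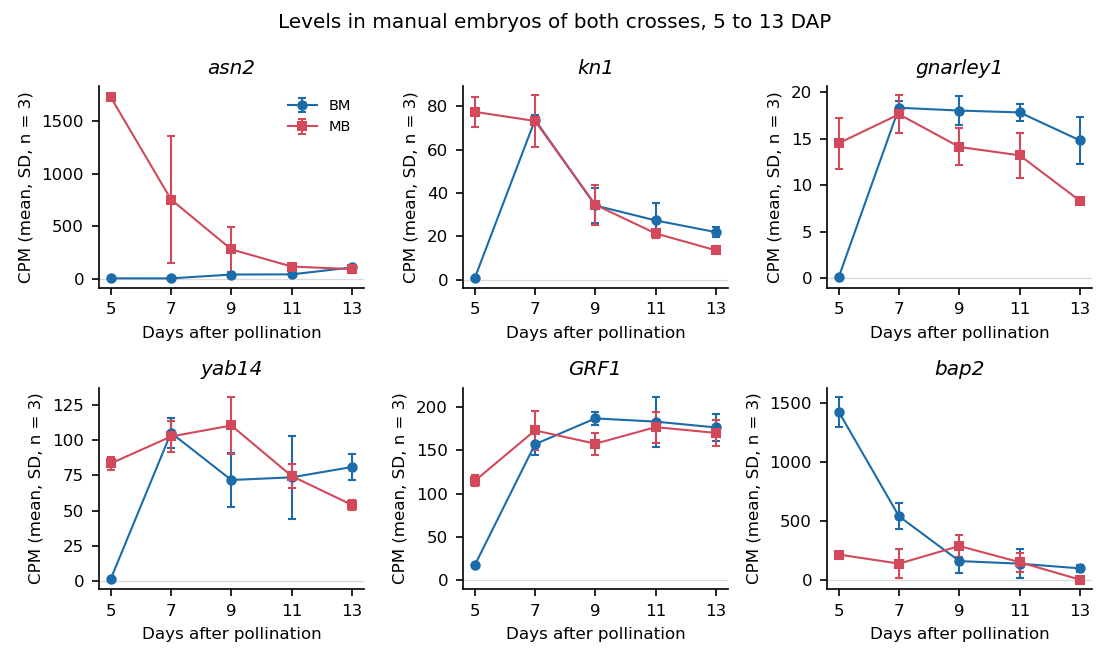
Mean CPM ± SD (n = 3) of 6 genes in hand-dissected embryos at 5, 7, 9, 11 and 13 DAP (blue circles BM, red squares MB). For kn1, gnarley1, yab14 and GRF1 the crosses are apart at 5 DAP and their error bars overlap at 7 DAP, whereas asn2 stays higher in MB at 7 DAP and the transfer layer gene bap2 is higher in BM at 5 and 7 DAP.

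The asparagine synthetase gene asn2 was still higher in MB at 7 DAP. It was at 3.21, 4.08 and 3.84 CPM in BM and at 336, 480 and 1449 CPM in MB at 7 DAP (log2 fold change 7.61 ± 0.88, adjusted p = 0.019, edgeR), and the interaction with age was not called (adjusted p = 0.54). The MB libraries varied widely at that age. At 13 DAP asn2 was at 108 ± 8.5 CPM in BM and 91.7 ± 2.88 CPM in MB (SD, n = 3). The gene sfp3 was also still higher in MB at 7 DAP, by 2.21 on the log2 scale (adjusted p = 0.0077, edgeR). The unnamed GRMZM2G127342 reached 24 CPM in BM and 145.5 CPM in MB at 7 DAP (adjusted p = 0.00082, edgeR).

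Genes of the basal transfer layer and the embryo-surrounding region were lower in MB embryos. Of the 16 genes listed, all were tested; 15 were lower in MB (93.8% against 14.4% of all genes) and none higher, with a median log2 fold change of -2.63. The other gene, ebe1, was at 8.86 ± 2.0 CPM in BM and 8.08 ± 1.44 CPM in MB (SD, n = 3). The invertase gene mn1 (GRMZM2G119689), which splits sucrose as it enters the endosperm, was at 150, 148 and 157 CPM in BM and at 15.8, 14.3 and 18.7 CPM in MB, a log2 fold change of -3.29 ± 0.091. The response regulator gene tcrr-1 (GRMZM2G016145), which is expressed in transfer cells but was named by the rule and is not on the list, was at 62.5, 56.0 and 51.6 CPM in BM and at 3.11, 2.02 and 3.07 CPM in MB, a log2 fold change of -4.44 ± 0.16 (adjusted p = 2.6e-10, edgeR). The crosses did not overlap for either gene.

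Small secreted proteins of the transfer layer followed. The antifungal protein gene bap2 was at 1469, 1529 and 1284 CPM in BM and at 210, 226 and 210 CPM in MB. The cysteine-rich peptide gene MEG1, a maternally expressed regulator of transfer cells, fell by 2.85 ± 0.069 on the log2 scale, betl3 by 3.49 ± 0.10 and betl4 by 2.95 ± 0.11. The related genes bap-3b, betl-9, bap-1a and bap-3a, and the BURP domain genes BURP7 and BURP6, none of them on the list, fell by 2.91 to 3.46 on the same scale. The embryo-surrounding genes esr1, esr2 and ESR3, which encode CLE-type peptides, were lower in MB by similar amounts. The gene esr1 was at 2984, 3184 and 2587 CPM in BM and at 471, 460 and 456 CPM in MB, a log2 fold change of -2.74 ± 0.076. All these families hold near-identical copies that may share reads, so the value of a single member is uncertain while the direction was shared by the members named.

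Marker genes of the tissues around the embryo were summed in each library. Over 4 embryo-surrounding markers the sum was 8744 to 9959 CPM in BM and 1708 to 1767 CPM in MB. Over 10 transfer layer markers, all at 1 CPM or more in every library, it was 2546 to 2855 CPM in BM and 397 to 419 CPM in MB. Over 11 markers of the starchy endosperm it was 135 to 139 CPM in BM and 130 to 137 CPM in MB, with o2 at 0 in BM and gz50 at 0 in MB. Of that list the PBF gene model GRMZM2G146267 alone was at 91.1 and 92.8 CPM on average in BM and MB embryos, above its 32.8 and 33.7 CPM in endosperm, and it made up most of the sum in embryos. Aleurone markers summed to 911 to 987 CPM in BM and 1033 to 1206 CPM in MB, over 9 genes. Among these, LTP3 was at 243 and 334 CPM and plt1 at 257 and 303 CPM on average in BM and MB, but LTP3, plt1 and plt2 were at 3.31 to 11.5 CPM in endosperm and at 77.4 to 1665 CPM in LCM embryos, so these members go against the name of the list. The 14 embryo markers summed to 259 to 384 CPM in BM, with nam1 at 0, and to 456 to 663 CPM in MB. In LCM embryos the same sum was 1183 to 2033 CPM in BM and 944.5 to 1220 CPM in MB. Of these markers wox2A, ole1 and ole17 were higher on average in endosperm than in hand-dissected embryos of both crosses. In BM and MB endosperm wox2A was at 39.1 and 32.6 CPM and ole1 at 65.8 and 81.6 CPM. The markers glb1 and bif2 were higher in endosperm in BM only, and the rest in neither cross. The 9 ovule and seed coat markers summed to 26.7 to 33.3 CPM in BM, with the zmm2 gene model GRMZM2G316366 at 0, and to 24 to 28.3 CPM in MB. The part of these tissues in the differences of the embryo libraries was not tested, and in bulk samples fewer cells of a type and less RNA per cell cannot be told apart. The shoot genes kn1, gnarley1 and yab14 were each at 0.105 CPM or less on average in endosperm of both crosses.

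**Figure D3:**
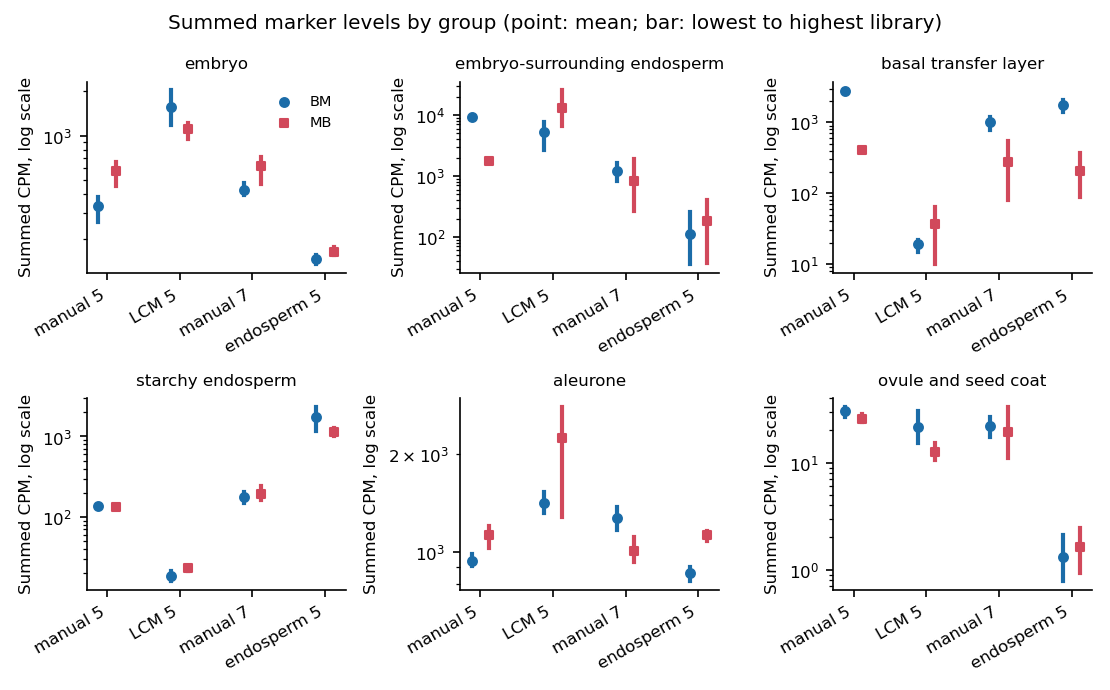
Summed CPM on a log axis of marker lists of 6 tissues in hand-dissected embryos at 5 DAP, LCM embryos at 5 DAP, hand-dissected embryos at 7 DAP and endosperm at 5 DAP (points mean, bars lowest to highest of 3 libraries; blue BM, red MB). In hand-dissected embryos at 5 DAP the embryo-surrounding and transfer layer sums are higher in BM and the sums of the starchy endosperm list, mostly GRMZM2G146267, overlap.

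The label embryo was checked against these markers. In LCM embryos at 5 DAP the embryo regulator gene lec1 was at 1253 ± 401 CPM in BM and 590 ± 114 CPM in MB, a fall of 1.32 on the log2 scale (adjusted p = 0.028, edgeR), against 45.8 ± 5.05 and 69.5 ± 18.1 CPM in the hand-dissected embryos and 0.268 and 0.40 CPM in endosperm (SD, n = 3). Transfer layer markers summed to 9.87 to 64.7 CPM over the LCM libraries, with betl10, MEG1, tcrr-1 and mn1 at 0 in BM and tcrr-1 at 0 in MB, and starchy endosperm markers to 16.1 to 24.3 CPM. The hand-dissected libraries of both crosses therefore carried reads of embryo genes beside reads of transfer layer genes, which were far lower in the LCM libraries.

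The endosperm itself showed the transfer layer difference. In endosperm at 5 DAP 4200 of 19724 genes were called between crosses (21.3%; 9.05% higher and 12.2% lower in MB; 2436 to 4750 genes when 1 library was left out), and 10 of the 15 listed genes, of which 14 were tested, were lower in MB there too. The gene mn1 was at 310.5 ± 96.6 CPM in BM and 14.0 ± 13.6 CPM in MB endosperm, and tcrr-1 at 45.3 ± 9.35 and 1.91 ± 1.86 CPM (SD, n = 3). The count of 10 fell to 0 without BM replicate 1, BM replicate 2, BM replicate 3 or MB replicate 1 of endosperm, and to 3 without MB replicate 3; the medians in those fits were -2.28 to -2.78. It was 1 with the replicate number as a block, 3 without the filter on low counts and 6 in the fit over all 48 libraries. The embryo-surrounding genes behaved otherwise: esr1 was at 28.6 ± 32.6 CPM in BM and 48.8 ± 48.3 CPM in MB endosperm, and it was not called.

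At 7 DAP transfer layer markers summed to 779 to 1209 CPM in BM and 80.5 to 549 CPM in MB embryos, and none of the 15 genes was called. For tcrr-1, not on the list, the interaction with age was called (2.32, adjusted p = 0.043, edgeR). Without MB replicate 3, in which esr1 was at 356 CPM against 56.5 and 49.7 CPM in the other MB libraries, 10 of the 15 were lower in MB with a median of -2.63. The interaction with age was called for none of the 15, and for 2 of them without MB replicate 2 of 7 DAP. In the LCM embryos the mean embryo-surrounding sum was higher in MB, at 13039 CPM against 5288 CPM in BM, but the crosses overlapped. The sums ran from 2685 to 7556 CPM in BM and from 6645 to 25548 CPM in MB. None of the 7 listed genes tested there was called (DESeq2 called 1, higher in MB). Of all 18511 genes tested there 1289 were called (6.96%, with 3.14% higher and 3.82% lower in MB). That number was 239 to 1820 when 1 library was left out. Of the LCM calls 45.2% were higher in MB, and 68.4% on the FPKM scale. The interaction with collection called 1310 of 22660 genes (5.78%; 2.3% upwards and 3.48% downwards; 446 to 1933 genes when 1 library was left out), among them 5 of the 15 genes. That count ran from 2 to 13 when single libraries were left out, the highest without LCM MB replicate 1.

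**Figure D4:**
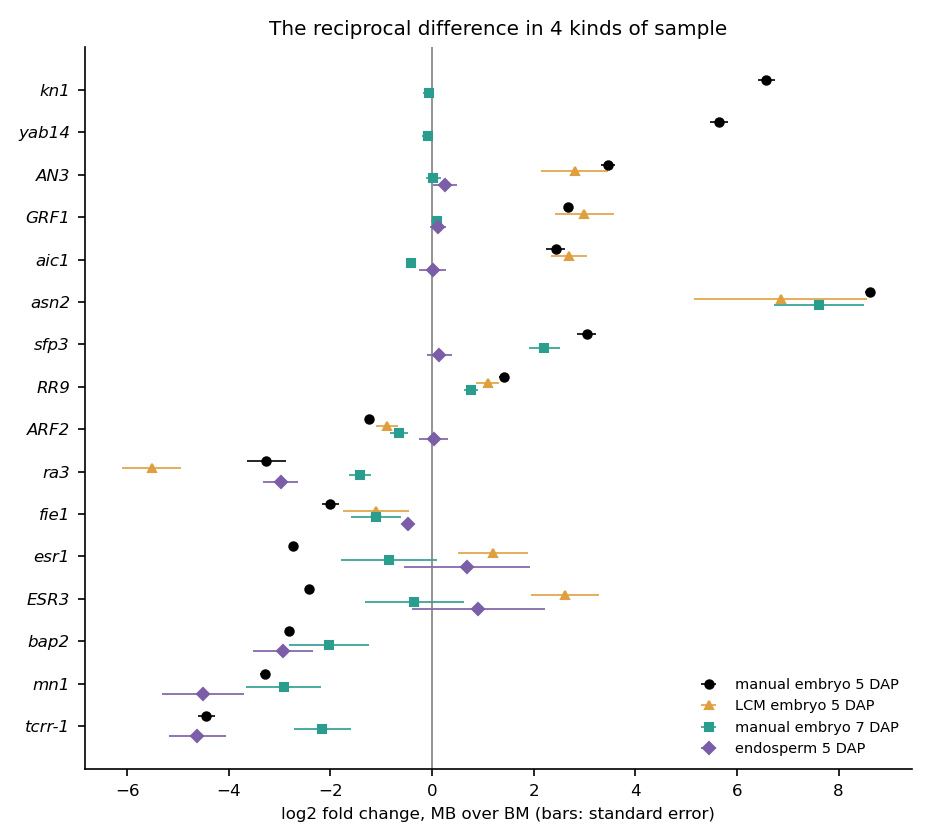
Log2 fold change of MB over BM ± SE for 16 genes in 4 kinds of sample (black circles hand-dissected embryos at 5 DAP, orange triangles LCM embryos, green squares hand-dissected embryos at 7 DAP, purple diamonds endosperm); where a kind has no point the gene was not tested there. The shoot genes at the top are near 0 at 7 DAP, asn2 is high at both ages, and mn1 and tcrr-1 are below 0 in endosperm as well.

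The 4 comparisons share no library with each other. Shares of the 5 DAP embryo calls below are over all 6005, also those not tested in the other kind. Shares of all genes are over the genes tested in that kind, so the bases differ. Of 22060 genes tested in hand-dissected embryos at 5 DAP, 17834 were also tested in LCM embryos, 20959 at 7 DAP and 18680 in endosperm. Of the calls in hand-dissected embryos at 5 DAP, 519 were also calls in LCM embryos, which is 8.64% of the former, against 6.96% of all genes tested in LCM embryos, and 40.3% of the latter, and 459 of them had the same direction. At 7 DAP 813 were shared (13.5%, against 8.32% of all genes tested at 7 DAP, and 45.3%), 680 in the same direction. In endosperm 1458 were shared (24.3%, against 21.3% of all genes tested in endosperm, and 34.7%), 903 in the same and 555 in the opposite direction. The cross difference in endosperm differed from that in embryos for 4575 of 23153 genes by interaction (19.8%; 11.3% upwards and 8.46% downwards, with the share upwards of 57.2% becoming 32.8% on the FPKM scale), and for 2761 of the 5988 embryo calls tested (46.1%). Pearson's r of the log2 fold changes across genes, which are not independent replicates, was 0.38, 0.40 and 0.32 with LCM embryos, 7 DAP embryos and endosperm.

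In LCM embryos kn1 was at 0.517, 0.635 and 0 CPM in BM and at 0, 11.1 and 0.274 CPM in MB, so that only MB replicate 2 had more than 1 CPM, and the gene did not pass the filter there. The gene yab14 was at 0 CPM in the 3 BM and at 0.371, 26.9 and 6.76 CPM in the 3 MB LCM libraries. The gene AN3 was at 6.63, 4.08 and 6.14 CPM in BM and 12.9, 95.2 and 35.1 CPM in MB LCM embryos (adjusted p = 0.052, edgeR). The rule genes yab10, GRF1 and PYL10 were called in the same direction in LCM embryos as in hand-dissected ones, yab10 by 5.16, GRF1 by 2.99 and PYL10 by 2.12 on the log2 scale. In each of them MB replicate 2 was the highest library. The collection interaction was called for 2 of the 24 rule genes, betl3 and BURP7.

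Auxin genes moved in both directions. Of 37 tested genes of 53 listed, 13 were higher (35.1% against 12.9% of all genes) and 11 lower (29.7% against 14.4%). Their median log2 fold change was -0.03. The influx carrier gene aic1 was at 18.1, 14.1 and 23.9 CPM in BM and at 121, 84.9 and 115 CPM in MB, a log2 fold change of 2.43 ± 0.19, and it was also called in LCM embryos (2.69, adjusted p = 0.0051, edgeR). At 7 DAP aic1 was lower in MB (-0.42, adjusted p = 0.027). The Aux/IAA repressor gene IAA12 was 0.97 ± 0.16 higher on the log2 scale, and 4.80 higher in LCM embryos (adjusted p = 5.7e-05, edgeR). The auxin response factor gene ARF2 was at 181, 180 and 168 CPM in BM and at 71.7, 83.1 and 81.7 CPM in MB, a log2 fold change of -1.24 ± 0.073. It was lower in MB LCM embryos as well (-0.89, adjusted p = 0.032, edgeR). ARF17 fell by 1.05 ± 0.068 and ARF5 by 1.70 ± 0.15 on the log2 scale. The auxin synthesis gene Yucca3 fell from 14.3, 16.4 and 12.7 CPM in BM to 5.71, 3.52 and 5.26 CPM in MB; it was also lower in MB endosperm, at 19.1 against 11.3 CPM (adjusted p = 0.013, edgeR). Without MB replicate 3 the number of higher members was 8, and the fit over all 48 libraries called 3 higher and 5 lower.

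The list of cytokinin synthesis, degradation and response genes held more higher than lower calls. Of 24 tested members of 31, 6 were higher (25.0% against 12.9% of all genes) and 2 lower (8.33% against 14.4%). Their median log2 fold change was 0.27. The response regulator gene RR9 was at 21.1, 23.8 and 24.9 CPM in BM and at 59.1, 68.8 and 67.6 CPM in MB, a log2 fold change of 1.41 ± 0.10. RR9 was called in the same direction in LCM embryos (1.09, adjusted p = 0.021) and at 7 DAP (0.76, adjusted p = 0.011, edgeR). In the fit over all 48 libraries 1 member was higher and 1 lower.

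Transcription factors of the bHLH family were more often higher than lower in MB. Of 25 tested members of 46 listed, 10 were higher (40.0% against 12.9% of all genes) and 2 lower (8.0% against 14.4%). Their median log2 fold change was 0.55. A gene near absent in one cross can pass the filter on low counts through the other cross alone. Without that filter 42 members were tested, with 12 higher and 4 lower, where 3258 of all 31683 genes were higher and 3203 lower. The fit over all 48 libraries called 8 members higher and 1 lower. The gene bHLH116 was at 38.1, 31.5 and 41.0 CPM in BM and at 138, 119 and 136 CPM in MB, a log2 fold change of 1.75 ± 0.094. In LCM embryos bHLH116 was at 0.0861, 0 and 0 CPM in BM and at 9.64, 12.1 and 6.21 CPM in MB. The genes bHLH173 and bHLH7 rose by 5.12 ± 0.44 and 4.4 ± 0.35 on the log2 scale from under 1 CPM in BM. Of the 10 members that were higher, 7 had the interaction with age.

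**Figure D5:**
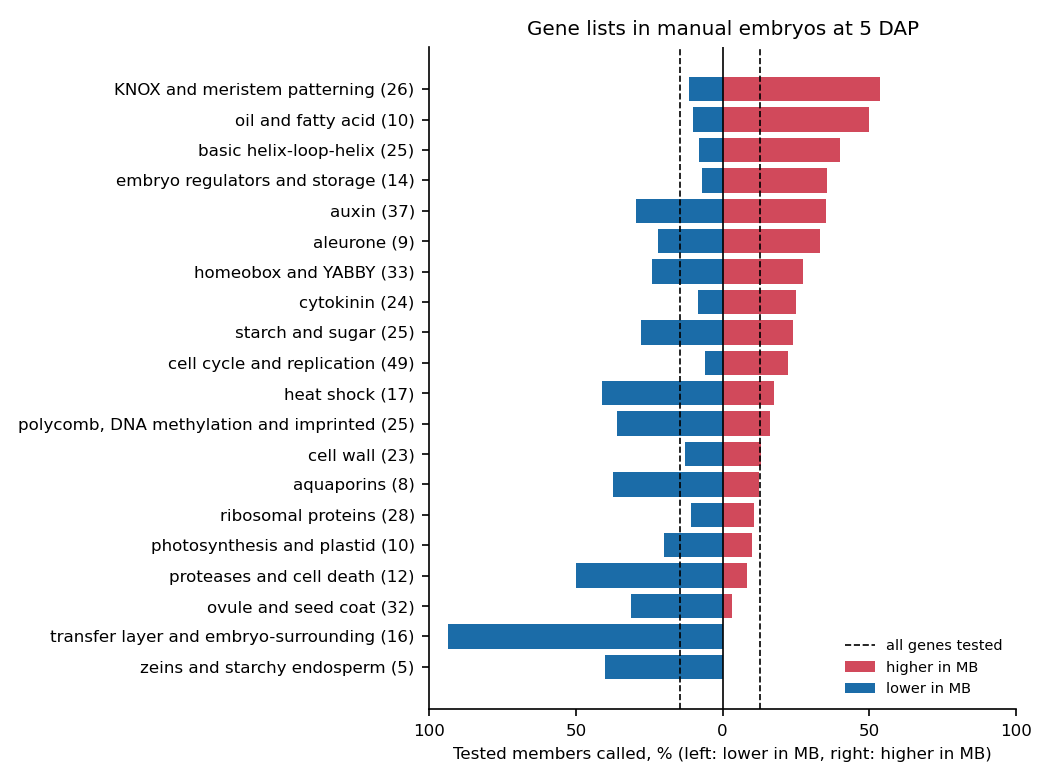
Share of the tested members of 20 gene lists that were called, in percent, to the right higher and to the left lower in MB (number tested in parentheses); dashed lines mark the shares over all genes tested, 12.9% higher and 14.4% lower. The meristem list stands out to the right with 53.8% and the transfer layer and embryo-surrounding list to the left with 93.8%; lists with few tested members move by large steps.

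The lists of oil and of storage genes, which share ole1 and ole17, each held more higher than lower calls. Of 10 tested members of the oil and fatty acid list 5 were higher and 1 lower, with a median of 0.35. Over all genes tested 12.9% were higher and 14.4% lower, so only the share higher was above that of all genes. For this oil list the fit over all 48 libraries called 1 higher and none lower. The gene SAD1 was at 99.0, 84.4 and 82.8 CPM in BM and at 177, 183 and 176 CPM in MB, a log2 fold change of 0.93 ± 0.073. It was lower in MB in LCM embryos (-0.94, adjusted p = 0.047, edgeR) and higher at 7 DAP (1.17, adjusted p = 0.0075). The fatty acid desaturase gene fad2 rose by 0.81 ± 0.11 on the log2 scale. The oleosin gene ole1, which coats oil bodies, was at 15.1, 5.07 and 9.24 CPM in BM and at 52.4, 27.7 and 47.7 CPM in MB, called at 2.02 ± 0.43 but not called without BM replicate 2, BM replicate 3 or MB replicate 3. In LCM embryos ole1 was also higher in MB (1.88, adjusted p = 0.019, edgeR). Of 14 tested embryo regulators and storage genes 5 were higher (35.7% against 12.9% of all genes) and 1 lower (7.14% against 14.4%). Leaving out any 1 library left 1 to 3 higher, and the fit over all 48 libraries left none. The call of lec1 (0.52 ± 0.17) was lost in 5 of those 6 fits, and in LCM embryos lec1 was lower in MB.

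The list of MADS-box, ovule and seed coat genes held more lower than higher calls. Of 32 tested members of 41 listed, 10 were lower (31.2% against 14.4% of all genes) and 1 higher (3.12% against 12.9%). Their median log2 fold change was -0.59. The gene MADS42 was at 15.6, 15.9 and 16.5 CPM in BM and at 2.31, 1.05 and 2.25 CPM in MB, a log2 fold change of -3.16 ± 0.25. The gene m19 (tunicate1) fell by 1.72 ± 0.15, and the ovule gene listed as mpik32a (zag2) by 1.45 ± 0.21. MADS42 was at 0.57 and 0.703 CPM in endosperm of BM and MB. The fit over all 48 libraries called 5 lower and none higher.

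Cystatins, inhibitors of cysteine proteases, and cysteine proteases formed a list in which 6 of 12 tested members were lower and 1 higher in MB. Over all genes tested 14.4% were lower and 12.9% higher, so only the share lower was above that of all genes. The cystatin gene cc8 was at 515, 472 and 542 CPM in BM and at 88.7, 73.4 and 93.7 CPM in MB, a log2 fold change of -2.66 ± 0.085. In LCM embryos cc8 was at 308.5 to 2386 CPM over both crosses and was not called. The protease gene mir3 was higher in MB, by 1.28 ± 0.14. The fit over all 48 libraries called 2 lower and none higher.

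Genes of chromatin repression and imprinting held calls in both directions. Of 25 tested members 9 were lower in MB (36.0% against 14.4% of all genes) and 4 higher (16% against 12.9%). The share higher was near that of all genes. Their median was -0.20, and on the FPKM scale 5 were lower and 4 higher with a median of 0.07. The polycomb gene fie1, expressed from the maternal allele in endosperm, was at 20.8, 19.5 and 20.4 CPM in BM and at 5.06, 4.65 and 6.32 CPM in MB, a log2 fold change of -2.0 ± 0.17. In endosperm fie1 was at 413 CPM in BM and 300 CPM in MB (adjusted p = 0.00043, edgeR). Its relative fie2, expressed more widely, was higher in MB embryos, by 0.45 ± 0.087, and the histone methyltransferase gene mez2 fell by 0.71 ± 0.11. The fit over all 48 libraries called 4 lower and 1 higher.

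Starch and sugar genes were split, with 6 of 25 tested members higher and 7 lower. Both shares were above those over all genes tested, 12.9% higher and 14.4% lower. The sucrose synthase gene sh1 was at 148, 161 and 147 CPM in BM and at 242, 307 and 260 CPM in MB, a log2 fold change of 0.75 ± 0.086, and at 7 DAP it was lower in MB (-0.55, adjusted p = 0.0026, edgeR). The starch synthase gene du1 fell by 1.10 ± 0.11 on the log2 scale. Without MB replicate 1 or MB replicate 3 the number of higher members was 3, and the fit over all 48 libraries called 2 lower and none higher. Of 19 zein and starchy endosperm genes 5 were tested, and 2 were lower (40.0% against 14.4%).

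Genes of the cell cycle, of ribosomes and of heat shock were also counted. Of 49 cell cycle and replication genes 11 were higher (22.4% against 12.9% of all genes) and 3 lower (6.12% against 14.4%). Their median log2 fold change was 0.10. The replication clamp gene pcna2 was at 323, 329 and 334 CPM in BM and at 441, 410 and 430 CPM in MB, and the tubulin gene TUBB2 at 224, 220 and 222 CPM in BM and at 106, 106 and 107 CPM in MB. The number of higher members was 7 without BM replicate 1, MB replicate 1 or MB replicate 3, and the fit over all 48 libraries called none higher and 2 lower. Of 28 ribosomal protein genes 3 were higher and 3 lower, a share near that of all genes, and without MB replicate 3 none was higher and 1 lower. At 7 DAP 21 of the 28 were lower in MB (75.0% against 4.59% of all genes tested at that age). Their median log2 fold change there was -0.42. Calls over all genes at 7 DAP ran from 419 to 3492 when 1 library was left out, and were 241 in the fit over all 48 libraries. Of 17 heat shock genes 7 were lower (41.2% against 14.4% of all genes) and 3 higher (17.6% against 12.9%). Their median was -0.20, and none was called in the fit over all 48 libraries. The factor gene Hsf26 fell from 5.9, 8.06 and 5.44 CPM in BM to 1.16, 0.899 and 1.06 CPM in MB, and it was also lower in MB LCM embryos (adjusted p = 0.02, edgeR).

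In the aleurone list 3 of 9 tested members were higher (33.3% against 12.9% of all genes) and 2 lower (22.2% against 14.4%); without MB replicate 2, 5 were higher. The aleurone regulator gene listed as IDDveg9 (Nkd1) was at 9.57, 13.1 and 12 CPM in BM and at 42.7, 34.7 and 43.1 CPM in MB. The gene plt2, listed with them by its symbol, fell by 1.02 ± 0.11 and was also lower in MB in LCM embryos (-1.18, adjusted p = 0.0095, edgeR). Of 23 cell wall genes 3 were higher and 3 lower, shares near the 12.9% and 14.4% of all genes. Of 10 photosynthesis and plastid genes 1 was higher and 2 lower, too few calls to set this list apart from all genes. Of 8 aquaporin genes 1 was higher and 3 lower (37.5% against 14.4%). The channel gene nip1a was among the latter, at 40.0 to 53.8 CPM in BM and 22.4 to 25.8 CPM in MB.

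Genes grouped by their behaviour in other libraries gave a broader description, with no test. The shares below stand beside 12.9% higher and 14.4% lower in MB over all genes tested. Of 841 genes high in endosperm against LCM embryos at 5 DAP and hand-dissected embryos at 9 DAP, 763 were tested; 236 were lower in MB (30.9%) and 49 higher (6.42%), with a median of -0.37. The number higher was 31 without MB replicate 1 and 27 without MB replicate 3. Their summed level was 14176 to 16534 CPM in BM and 9379 to 11826 CPM in MB. Of 311 embryo-high genes, the reverse group, 116 were higher (37.3%) and 54 lower (17.4%), with a median of 0.17, while their sums overlapped between the crosses. Of 254 genes that were higher at 9 than at 7 DAP, 239 were tested; 89 were higher in MB at 5 DAP (37.2%) and 28 lower (11.7%), with sums of 7175 to 7426 CPM in BM and 9499 to 9583 CPM in MB. Of 436 genes that were lower at 9 than at 7 DAP, 121 were higher and 121 lower in MB (27.8% each). Their sums were 41220 to 46115 CPM in BM and 32229 to 37439 CPM in MB. The fit over all 48 libraries called 105 lower and 12 higher among endosperm-high genes, 26 higher and 11 lower among embryo-high genes, and 36 higher and 12 lower among late-rising genes.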

How the data were processed

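The deposited table holds raw read counts and FPKM per gene model and library; count and FPKM columns are named so per the file headers, and both were made by the authors. The submitters' processing notes name FastQC, TopHat, HTSeq and Cufflinks 2.2.1; these sources name no genome build, annotation or strand setting, so antisense reads cannot be told apart. Reads of both alleles were counted together, and the effect of Mo17 sequence differences on mapping was not tested. Names came from RefSeq's table for Zm-B73-REFERENCE-NAM-5.0, which matched 18775 of 39656 gene models (47.3%) and gave 2648 an informative symbol; 520 matched several entries. Its coordinates were not used.

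The main test was a robust quasi-likelihood fit in edgeR 4.0.16 (R 4.3.3) after filterByExpr and TMM scaling, two-sided, with Benjamini-Hochberg adjustment over every gene tested. There were 4 comparisons of 3 against 3 libraries and 3 interactions over 12 libraries. Totals of the other 18 libraries fitted were 7130090 to 17757529. A limit from a count of 0 (3 counts over the group) covers counting error only. Alternatives were RLE factors, DESeq2 1.42.0, no filter, at least 1 CPM in 3 libraries, a replicate block, 1 fit over all 48 libraries, limma 3.58.1 on log2(FPKM + 1) for a mean FPKM of at least 1, an absolute log2 change of 1 or more, and leaving out each library. The pipeline was tested on simulated data.

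Genes named by rule were the 10 largest changes each way with adjusted p under 0.05, a change of 1 or more in log2, separated crosses, a mean CPM of 10 or more and a symbol, the members of 20 lists by symbol, and 2 gene models without a symbol each way. Lists overlap in members, among them mn1, MEG1, gnarley1, wox3A, wox9B, wus2, lg4b, abph1, ole1 and ole17, so counts of overlapping lists are not independent. Groups by behaviour used other libraries: at least 4 times between endosperm and both embryo kinds or 2 times between ages, at least 10 CPM and no overlap. Members and lists were chosen with earlier results of these data known. In every list a gene near absent in one cross can pass the filter on low counts through the other cross alone.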

Additional observations from a re-analysis of the deposited data

Results flagged for a closer look

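The cross difference of some of the genes chosen by the naming rule differed between kinds of sample by an interaction test (edgeR, adjusted p under 0.05 over all genes; each value is the log2 difference of MB less BM in the first-named kind less that in the other). Chance gives some such calls, and no explanation was weighed. The genes were chosen for large changes in the 5 DAP embryo libraries, which each term reuses. A smaller difference in the other kind is therefore favoured by the choice. The interaction with age was called for 10 of the 24 rule genes, and for 33.2% of all 5 DAP embryo calls tested. With tissue these were 10 of 24 and 46.1%, and with collection 2 of 24 and 11.2%.

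From 5 to 7 DAP the difference shrank or turned for kn1 (-6.62), yab14 (-5.71), DEF1 (-4.51), yabby15 (-3.55), AN3 (-3.42), yab10 (-3.38), GRF1 (-2.56), PYL10 (-2.44) and the unnamed GRMZM2G127342 (-5.06). It moved towards MB by 2.32 for tcrr-1, with adjusted p = 0.043. The largest adjusted p of the others was 0.00018, for yab10.

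Between endosperm and hand-dissected embryos at 5 DAP the interaction was called for asn2 (-9.03), kn1 (-6.74), yab14 (-5.8), DEF1 (-4.5), AN3 (-3.16), PYL10 (-2.96), sfp3 (-2.86), GRF1 (-2.51), GRMZM2G029243 (-11.2) and GRMZM2G127342 (-6.87). In endosperm asn2, kn1, yab14, DEF1, GRMZM2G029243 and GRMZM2G127342 were each under 1 CPM on average in both crosses, so for these genes the term compares the embryo difference with low counts.

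Between hand-dissected and LCM embryos at 5 DAP it was called for betl3 (-6.76, adjusted p = 0.013) and BURP7 (-9.13, adjusted p = 0.032). Both were at 2.83 CPM or less in every LCM library.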

How the results depend on the processing

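The number of genes called in hand-dissected embryos at 5 DAP (6005) stayed within 1.5 times under RLE factors, DESeq2, both filters, the replicate block and FPKM. It was 1546 in 1 fit over all 48 libraries and 1955 with a log2 change of at least 1, and 4118 to 6958 when 1 library was left out. In LCM embryos the count of 1289 was 2321 with DESeq2, 3630 in the 48-library fit and 239 (without MB replicate 2) to 1820 (without MB replicate 1) with a library left out. At 7 DAP the count of 1794 was 241 in the 48-library fit, 580 on FPKM, 475 with a log2 change of at least 1, and 419 (without BM replicate 2) to 3492 (without MB replicate 3). In endosperm 4200 became 822 in the 48-library fit, 1420 with a log2 change of at least 1, and 2436 (without BM replicate 2) to 4750 (without MB replicate 1).

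The interaction with collection (1310) was 2729 with DESeq2 and 446 (without hand-dissected MB replicate 3) to 1933 (without LCM MB replicate 1). The interaction with age (2681) was 208 in the 48-library fit, 1103 with a log2 change of at least 1 and 1838 to 3210 with a library left out. The interaction with tissue (4575) was 472, 1839 and 3555 to 4667 likewise. The cause of these shifts was not tested, except that a log2 minimum removes calls by construction.

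All 24 genes chosen by rule kept their call and direction under every alternative run. They were chosen from the same libraries for large, separated changes, so this outcome was largely set by the choice. Of 71 called list genes named in the text, 33 lost their call in the 48-library fit, 7 of 66 on FPKM, 5 without a filter and 4 to 10 without a library; none of these changed direction. Same-numbered libraries of the crosses deviated together with correlations of 0.05, 0.23 and 0.16, and 2 of 3 correlated best with their own number, so the numbers were not taken as pairs. With the replicate block 6999 genes were called. Recounting the list members under each alternative was chosen after seeing the data. Depth limits genes under a few CPM, such as ns1 and nam1, whose folds are bounds.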
